A study of Mus musculus with 4 samples.

Results

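The collagen genes of the mouse were taken as the 44 genes of 55450 in the count matrices whose symbol is Col, a number, a and a number. By the structure of their products they comprise 11 fibrillar collagens, 9 fibril-associated collagens with interrupted triple helices (FACITs), 6 chains of basement membrane collagen IV, 6 chains of collagen VI, 4 other network-forming or anchoring chains, 4 transmembrane collagens, 2 multiplexins and 2 others. The choice used the symbols alone, though it was made with earlier results of these data known. The genes were followed here across the fibroblasts, endothelial and mural cells, epithelium and glia of the intestine and brain.

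The data were 4 single-cell RNA-seq libraries made with droplet 3′ counting, each of which stood alone in its group: intestine after 1 week of NPs, untreated intestine, brain after 2 months of NPs, and untreated brain. The labels describe all 4 as wild type, do not spell out NPs, and do not give the number of mice in a library. The extraction protocol names BALB/c mice aged 5 weeks and ICR mice aged 6 months without tying a strain to a tissue or a library, and the series text speaks of colon where the samples are called intestine. All tissues were dissociated with collagenase IV and papain and passed through dead-cell removal, so the cells that remain are those that this digestion released alive, and collagen protein was not measured. With 1 library in each group there was no replicate error and no test. Intervals (95%, exact Poisson for a level, exact binomial for a share or a ratio of counts) cover counting error only, and animal, strain, gut region, digestion and NPs cannot be told apart.

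Collagens are trimers of chains wound into a triple helix. Collagens I, III and V assemble into fibrils, FACITs decorate those fibrils, collagen VI forms beaded filaments around cells, and collagen IV makes the sheet of every basement membrane. In most organs fibroblasts make the fibrils, whereas endothelial and mural cells lay down the collagen IV that lies between them. In the intestine the fibroblasts under the crypts and the epithelium share a basement membrane. In the brain fibrillar collagen is largely held in meninges and the outer coat of vessels, while the vessel basement membrane is rich in collagen IV.

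Promoters are shown for 6 members that led different cell classes, since the same gene family had different leading members from class to class. Col3a1 led the fibrils of intestinal fibroblasts and Col8a1 had the largest ratio between the intestinal libraries among fibroblast collagens. Col11a2 was among the leading members of brain astrocytes, Col27a1 and Col6a3 led microglia, and Col15a1 was among the leading members of intestinal endothelium and of microglia. The highest brain level of Col15a1 was in fibroblasts. A RefSeq entry on build GRCm38.p6 was matched for 35 of 44 members. Each line gives the 250 bases before the RefSeq start in the direction of transcription. None of these bases lies in an exon of the GENCODE annotation, although the Col27a1 window lies within the gene span of the files. Capitals mark matches, which did not overlap each other, to 3 motifs on both strands: CCAAT, which reads ATTGG on the other strand, then GGGCGG, which reads CCGCCC there, and TATAAA, which reads TTTATA there.
Col3a1 (chr1:45311288-45311537, plus strand): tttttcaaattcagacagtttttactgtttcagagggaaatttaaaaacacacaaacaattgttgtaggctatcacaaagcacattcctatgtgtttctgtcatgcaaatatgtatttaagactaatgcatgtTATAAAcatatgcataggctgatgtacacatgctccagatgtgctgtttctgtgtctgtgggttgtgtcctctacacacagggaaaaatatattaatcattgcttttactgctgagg
Col8a1 (chr16:57754738-57754987, minus strand): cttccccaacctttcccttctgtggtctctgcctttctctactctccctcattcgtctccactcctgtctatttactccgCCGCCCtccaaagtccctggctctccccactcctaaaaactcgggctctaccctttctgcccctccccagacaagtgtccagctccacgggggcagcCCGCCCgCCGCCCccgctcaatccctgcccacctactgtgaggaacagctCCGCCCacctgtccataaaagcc
Col11a2 (chr17:34038888-34039137, plus strand): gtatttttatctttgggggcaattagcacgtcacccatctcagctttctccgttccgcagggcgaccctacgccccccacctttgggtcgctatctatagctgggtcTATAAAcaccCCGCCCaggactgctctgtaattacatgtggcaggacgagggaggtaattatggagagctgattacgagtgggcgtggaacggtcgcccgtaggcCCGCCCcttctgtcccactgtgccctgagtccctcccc
Col27a1 (chr4:63215162-63215411, plus strand): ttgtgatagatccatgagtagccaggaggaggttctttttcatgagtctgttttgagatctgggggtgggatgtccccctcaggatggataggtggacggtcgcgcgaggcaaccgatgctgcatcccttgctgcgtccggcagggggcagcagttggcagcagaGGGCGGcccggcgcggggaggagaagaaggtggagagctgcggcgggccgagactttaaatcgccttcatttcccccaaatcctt
Col6a3 (chr1:90843972-90844221, minus strand): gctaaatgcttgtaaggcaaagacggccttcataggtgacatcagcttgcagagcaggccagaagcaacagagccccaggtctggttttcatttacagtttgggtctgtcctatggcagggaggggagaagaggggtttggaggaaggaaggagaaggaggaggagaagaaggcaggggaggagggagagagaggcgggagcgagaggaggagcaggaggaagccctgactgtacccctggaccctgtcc
Col15a1 (chr4:47207762-47208011, plus strand): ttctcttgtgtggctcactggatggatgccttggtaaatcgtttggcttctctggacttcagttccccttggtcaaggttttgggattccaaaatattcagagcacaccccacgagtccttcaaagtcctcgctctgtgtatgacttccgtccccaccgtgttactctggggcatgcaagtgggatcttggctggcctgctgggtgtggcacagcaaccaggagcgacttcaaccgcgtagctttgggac

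GGGCGG, the core of the GC box, occurred in 21 of 35 collagen promoters (60%) and 32.9% of 27025 promoters in all. CCAAT was found in 12 of 35 collagen promoters (34.3%) and 34.5% of 27025 promoters in all, and TATAAA in 5 of 35 collagen promoters (14.3%) and 12.97% of 27025 promoters in all. Col8a1 held 4 GGGCGG matches, the nearest with its first base 23 bases before the start, whereas Col3a1 held a TATAAA match 117 bases before its start and no GGGCGG. Col11a2 held 2 GGGCGG matches and 1 TATAAA, Col27a1 held 1 GGGCGG, and Col6a3 and Col15a1 held none of these letters in the window. The matches describe the sequence only.

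Each library held 63889853 to 127772838 unique molecular identifiers (UMIs) in 11754 to 20368 cell barcodes. Over 20% of UMIs were mitochondrial in 46.5% of NPs and 16.7% of untreated intestinal barcodes, which were left out, and in 0.278% of NPs and 0.681% of untreated brain barcodes. This left 10548 NPs and 16858 untreated intestinal cells, and 11944 NPs and 11325 untreated brain cells. Pairs of libraries shared 35 to 104 barcodes, or 0.298% to 0.605% of the smaller library. Cell classes were built by clustering and named after marker genes, none of them a collagen gene. Each class name here stands for a class that is like that cell type by its markers. All 8 fibroblast markers, all 7 endothelial markers and all 6 enteric glia markers were counted in those intestinal classes, as were all markers of brain astrocytes, endothelium, microglia and pericytes in both libraries. These same markers named the classes, and 1 UMI was enough to count. NPs absorptive cells also held all 8 fibroblast and all 7 endothelial markers in this sense, so these counts do not check the names. The intestinal libraries stood apart from each other. Hox genes of groups 10 to 13, which are active in the hind part of the gut, made up 9.79% of Hox UMIs in NPs and 77.2% in untreated cells, so gut region and NPs cannot be told apart.

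Intestinal fibroblasts had the highest collagen level. In fibroblast-like cells, collagen genes together took 25872 CPM (UMIs of the gene for each 1000000 UMIs of the class) in the NPs library and 21344 CPM in the untreated library (191 and 107 cells). Because a molecule is counted once at its 3′ end, CPM here compares numbers of molecules between genes and carries no length term. Enteric glia, counted only in the NPs library, followed with 4269 CPM, then blood endothelium with 3351, smooth muscle or myofibroblasts with 2760.2 and lymphatic endothelium with 1044 CPM (46, 90, 26 and 22 cells). No cell of those 4 classes was found in the untreated library, so for them there is a level and no comparison. The epithelium lay far lower: collagen took 63.9 CPM of goblet-like cells in the NPs library and 20.0 CPM in the untreated library, and 14.1 and 5.70 CPM of absorptive cells. Lymphocytes, which should make no collagen, held 25.2 CPM in the NPs library and 8.002 CPM in the untreated library. The absorptive level was below the lymphocyte level in both libraries, and the goblet level was above it in both. Of the 205 collagen UMIs of untreated goblet cells, however, 92 were Col2a1, and 86 of those lay in 1 cell. Whether the other untreated goblet cells stood above lymphocytes was not tested.

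**Figure D1:**
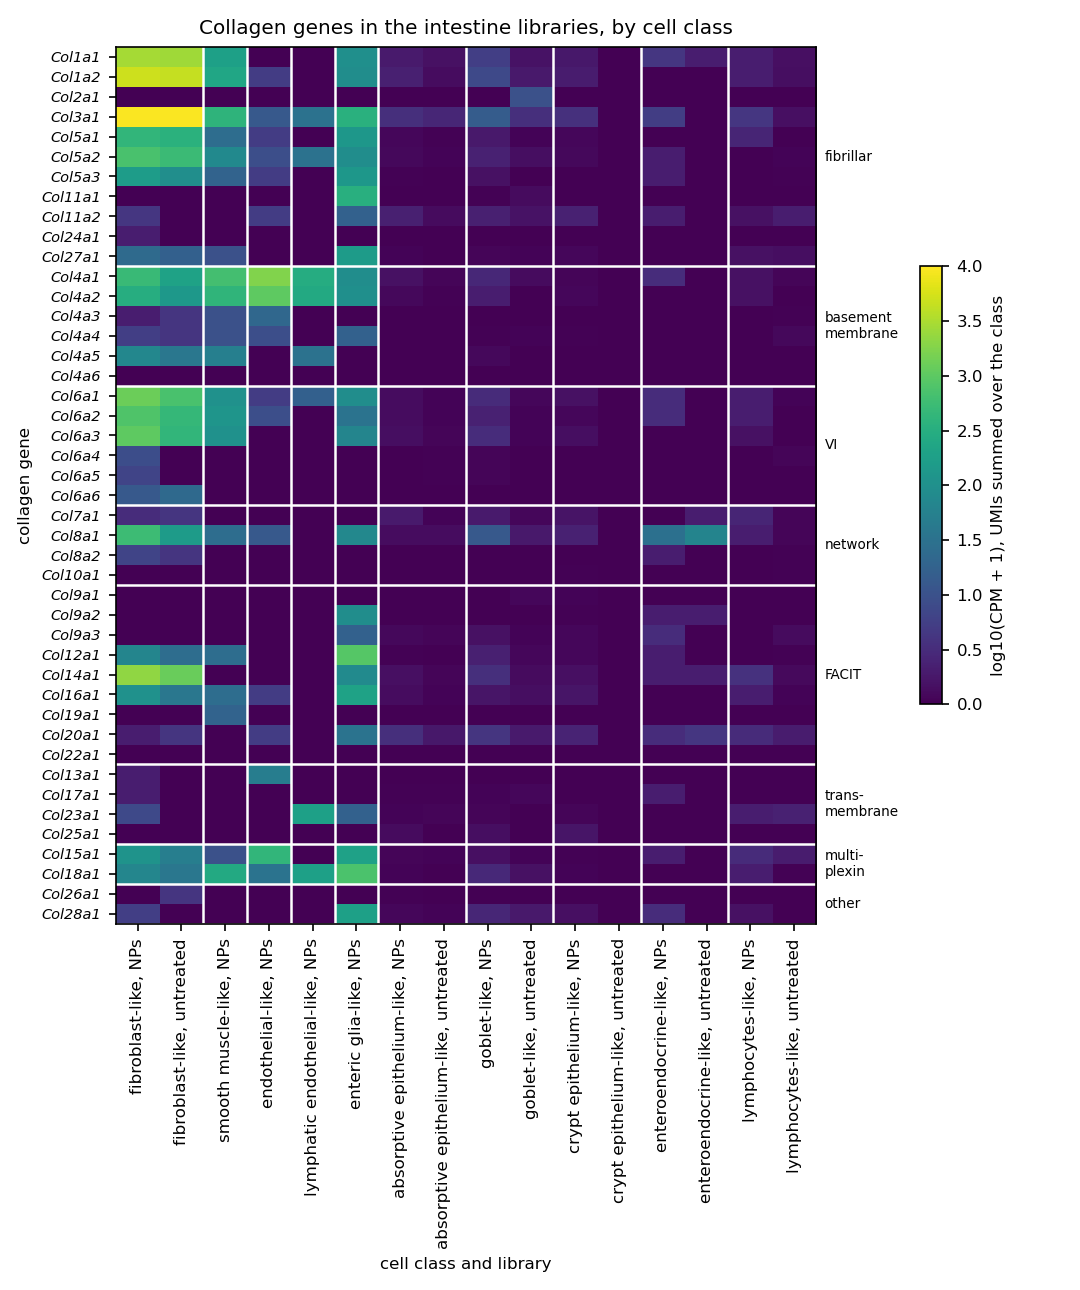
Level of each of the 44 collagen genes (rows, grouped by structure) in each intestinal cell class and library (columns, NPs left of untreated), as log10(CPM + 1) by colour, with UMIs summed over the class. Fibroblast columns are bright in the fibrillar rows, where Col3a1 reaches 9614 CPM in NPs and 9568 CPM in untreated, while the endothelial column is brightest at Col4a1 (1739 CPM) and the enteric glia column at Col12a1 (865 CPM).

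Col3a1 (chr1:45311538-45349706, plus strand), whose product forms fibrils beside collagen I, was the most counted member in intestinal fibroblasts, at 9614 CPM in the NPs library and 9568 CPM in the untreated library. The collagen I chain genes Col1a2 (4945 and 4487 CPM, NPs and untreated) and Col1a1 (2890.0 and 2730.1 CPM) came next. Col14a1, a FACIT that regulates fibril growth, had 2134 and 1212 CPM. The collagen VI chain Col6a1 followed in both libraries, at 1271 CPM with NPs and 722 CPM untreated. In blood endothelium of the NPs library the order was another one. Col4a1 (chr8:11198423-11312826, minus strand) had 1739 CPM (1577 to 1912 CPM) and its partner Col4a2 1006 CPM (885 to 1140.3 CPM). Col15a1 (chr4:47208161-47313167, plus strand), a multiplexin that links basement membrane to the matrix beyond it, had 425 CPM (348 to 516 CPM). Collagen IV made up 82.8% (80.02 to 85.3%) and the multiplexins 13.7% (11.4 to 16.2%) of the collagen UMIs of endothelium. The fibroblast markers Lum, Dpt, Islr, Adamdec1 and Fbln1 had no UMI in these cells, and all 8 fibroblast markers together reached 49.1 CPM.

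Enteric glia of the NPs library led with other members. Col12a1, a FACIT of dense connective tissue, had 865 CPM (708 to 1046 CPM), followed by the multiplexin Col18a1, the source of endostatin, with 726 CPM (583 to 894 CPM). Col3a1 (343 CPM) and the minor fibrillar gene Col11a1 (335 CPM) were next, then the FACIT gene Col16a1 (204 CPM), Col15a1 (196 CPM) and Col28a1 (188 CPM), whose product is known from the sheath of peripheral nerve. In the same library fibroblasts had 64.9 CPM of Col12a1, 67.1 CPM of Col18a1 and 4.48 CPM of Col28a1, outside the glial counting intervals. All 6 glia markers were present (3175 CPM), while the fibroblast markers summed to 2506 CPM with Lum, Pdgfra, Dpt and Adamdec1 at 0. Whether fibroblast RNA entered these 46 cells was not tested. Smooth muscle or myofibroblasts held basement membrane and fibrillar genes together, with Col4a1 at 631 CPM (494 to 795 CPM), Col4a2 at 412 CPM and Col3a1 at 394 CPM. Lymphatic endothelium held Col4a1 at 296 CPM, Col4a2 at 265 CPM and the transmembrane collagen gene Col23a1 at 187 CPM (96.6 to 327 CPM), against 0 UMIs in blood endothelium, where 3 UMIs would be 12.3 CPM. The transmembrane gene Col13a1 had 49.1 CPM (25.4 to 85.8 CPM) in blood endothelium and 0 UMIs in the 22 lymphatic cells, where 3 UMIs would be 46.7 CPM, so a difference was not detectable at this depth.

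In the brain the few fibroblast-like cells again stood highest, with collagen at 6135 CPM in the NPs library and 8821 CPM in the untreated library (19 and 25 cells). Vascular smooth muscle followed at 2759 and 2981 CPM in NPs and untreated brain, pericytes at 1482 and 1988 CPM, and choroid plexus epithelium at 1030.0 and 1276 CPM. Endothelium held 817 and 888 CPM. Microglia, which are immune cells, held 504 and 442 CPM, close to the 401 and 389 CPM of astrocytes and far above brain T cells at 65.2 and 57.5 CPM. Fibroblasts, smooth muscle, pericytes, choroid plexus and ependyma had under 50 cells in the NPs library, so their values are set side by side without a ratio.

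**Figure D2:**
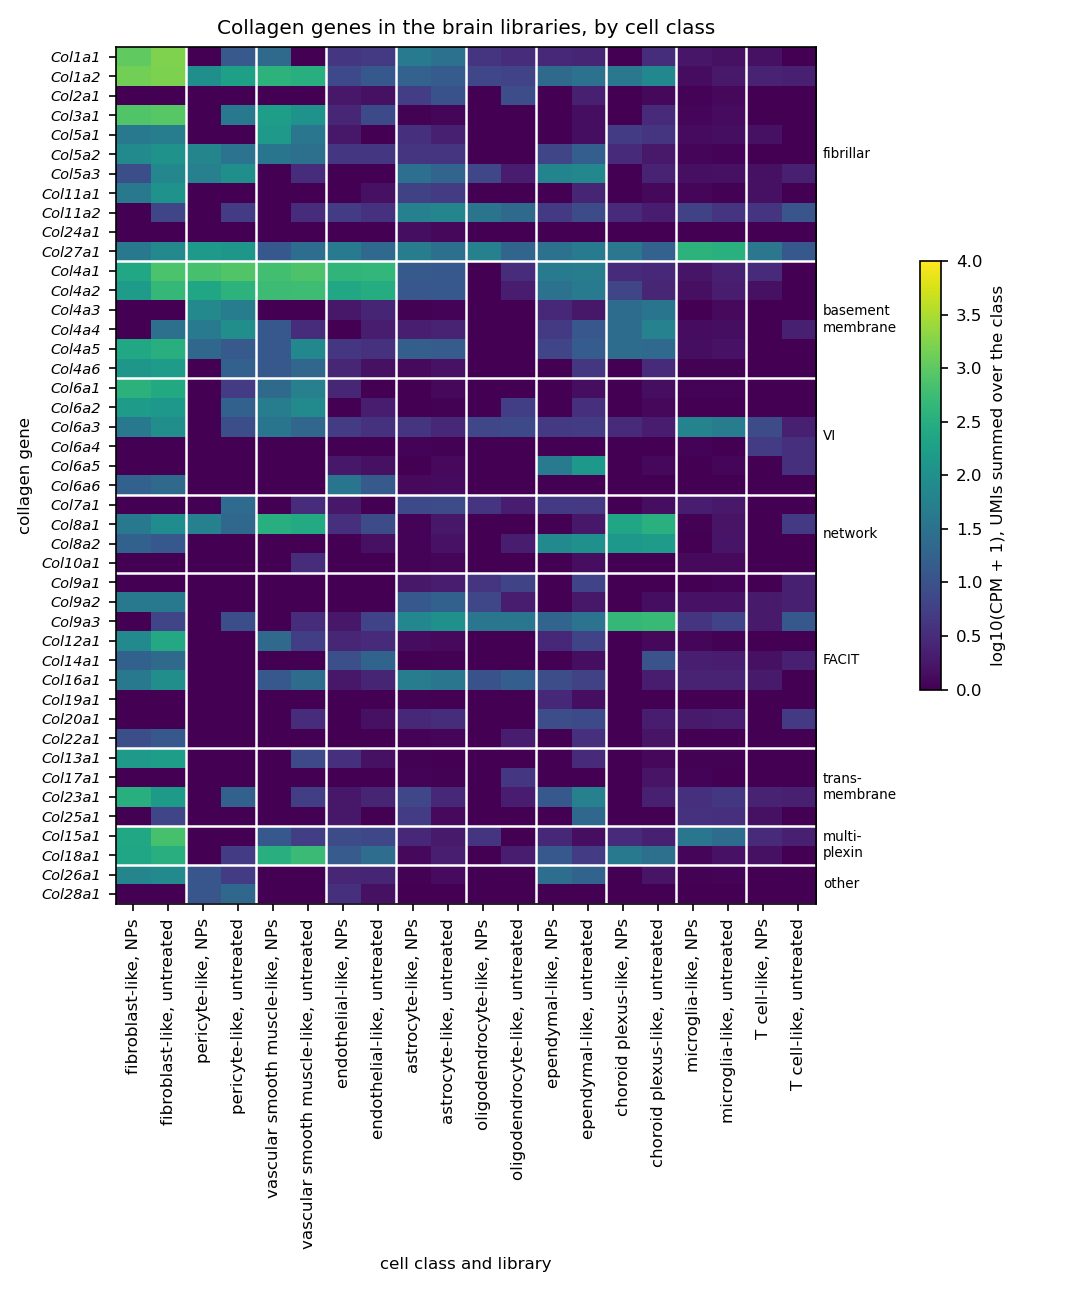
Level of each of the 44 collagen genes (rows, grouped by structure) in each brain cell class and library (columns, NPs left of untreated), as log10(CPM + 1) by colour, with UMIs summed over the class. Col4a1 and Col4a2 are bright from fibroblasts to endothelium in both libraries, Col9a3 is brightest in choroid plexus (460.4 CPM in NPs and 502 CPM in untreated) and Col27a1 in microglia (382 and 339 CPM).

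Brain fibroblasts held the collagen I genes at levels above Col3a1. Col1a2 had 1422 CPM (1218 to 1649 CPM) in NPs brain and 1619 CPM (1435 to 1821 CPM) in untreated brain, Col1a1 1038 and 1677 CPM, and Col3a1 833 and 917 CPM. They were the brain class with the highest Col4a6 (131 CPM in NPs and 157 CPM in untreated), a chain that pairs with Col4a5 in some basement membranes. The transmembrane gene Col13a1 was also highest there (147 and 168 CPM). Col23a1 was counted in them at 327 CPM in NPs and 151 CPM in untreated brain. Pericytes and vascular smooth muscle both led with collagen IV. In pericytes Col4a1 had 693 CPM (535 to 883 CPM) in NPs and 808 CPM (699 to 928 CPM) in untreated brain, and Col4a2 had 224 and 381 CPM. Vascular smooth muscle added Col18a1 at 323 CPM in NPs and 539.6 CPM in untreated brain, and Col8a1 (chr16:57624258-57754737, minus strand), whose short-chain product forms hexagonal networks in vessel walls, at 323 and 274 CPM. It also separated the collagen I chains: Col1a2 had 33 UMIs in NPs and 143 in untreated smooth muscle, whereas Col1a1 had 2 and 0. Other classes showed the same. In untreated brain Col1a2 had 46 UMIs and Col1a1 3 in pericytes, 343 and 11 in choroid plexus epithelium, and 76 and 4 in ependyma.

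The 2 epithelia that line the ventricles differed from one another. Choroid plexus epithelium led with Col9a3, a FACIT chain best known from cartilage, at 460.4 CPM (404 to 523 CPM) in NPs and 502 CPM (482 to 523 CPM) in untreated brain. The network collagens Col8a1 (224 and 345 CPM) and Col8a2 (133 and 159.5 CPM) came next. Both Col4a3 and Col4a4, chains of the kidney and lung type of collagen IV, were counted there: Col4a3 at 25.4 and 35.1 CPM, Col4a4 at 25.4 and 58.0 CPM. Pericytes carried the same pair, with Col4a3 at 74.6 CPM in NPs and 48.7 CPM in untreated brain and Col4a4 at 42.6 and 93.3 CPM. These pericyte values rested on 7 and 12 UMIs of Col4a3 and 4 and 23 UMIs of Col4a4, so their order is not read. Ependymal cells led with the collagen VI chain Col6a5 in the untreated library, at 135 CPM (120.4 to 149.8 CPM), and had 44.2 CPM (28.0 to 66.4 CPM) in the NPs library. Col8a2 (78.9 and 102 CPM) and the minor fibrillar gene Col5a3 (63.5 and 72.9 CPM) followed. Col25a1, a transmembrane collagen known for its shed form in amyloid plaques, had 0 UMIs in 46 NPs ependymal cells and 51 UMIs (20.7 CPM) in 272 untreated ones. In the NPs cells 3 UMIs would be 5.77 CPM. The ependymal class joined 2 clusters in different proportions. The larger held 30 NPs and 239 untreated cells, and the other, led by Sspo, held 16 NPs and 33 untreated cells. The part of this make-up in the Col6a5 and Col25a1 values was not tested.

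Astrocytes led with FACIT and fibrillar genes, almost without Col3a1. Col9a3 (71.5 CPM in NPs and 100.3 CPM in untreated) and Col11a2 (chr17:34039437-34066685, plus strand; 55.3 and 65.7 CPM), a minor fibrillar chain, were highest. Then came Col16a1 (46.8 and 36.6 CPM), Col27a1 (46.3 and 28.5 CPM) and Col1a1 (41.7 and 31.0 CPM). Col3a1 had only 1 UMI in NPs and 3 UMIs in untreated astrocytes, against 802 and 681 UMIs of Col1a1. The sub-populations of the astrocyte class split these genes. In a cluster of 90 NPs and 256 untreated cells, Col9a3 reached 331 and 446 CPM and Col2a1, the main cartilage fibril gene, 109 and 94.4 CPM, with Col1a1 at 1.39 and 7.18 CPM. Another cluster showed the opposite arrangement, with Col11a2 at 134 CPM in NPs and 137 CPM in untreated, Col27a1 at 119 and 97.5 CPM, and Col1a1 at 96.5 and 74.7 CPM. Collagen genes were left out of the clustering, so they did not draw these borders. As a background, Col9a3 was seen in 6.29% of NPs and 9.53% of untreated astrocytes after each cell was thinned to 1000 UMIs, and in 0.310% and 0.711% of microglia. Without thinning, the astrocyte shares were 24.5% and 30.1% at median depths of 4452 and 4875 UMIs.

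Microglia counted chiefly 1 member. Col27a1 (chr4:63214004-63334991, plus strand), a fibrillar collagen with short helix interruptions that is known from cartilage, had 12763 UMIs in NPs and 9528 UMIs in untreated microglia, which is 382 CPM (375 to 389 CPM) and 339 CPM (332 to 346 CPM). After thinning to 1000 UMIs a cell, 32.7% of NPs and 29.8% of untreated microglia held a Col27a1 UMI, against 2.18% and 0.559% of brain T cells. Without thinning the shares were 76.6% and 75.1% of microglia (median 4706 and 4937 UMIs) and 8.83% and 2.75% of T cells (median 4005 and 3888 UMIs). The microglial share stood well above that of T cells in both libraries. Col6a3 (chr1:90765923-90843971, minus strand), the longest of the classical collagen VI chains, was the second member of microglia at 60.9 CPM in NPs and 48.0 CPM in untreated. Its partners were nearly missing, with Col6a1 at 3 and 3 UMIs and Col6a2 at 1 and 1 UMIs against 2034 and 1349 UMIs of Col6a3. In intestinal fibroblasts the 3 chains stood close together, at 1271, 799 and 1029 CPM in the NPs library and 722, 468 and 433 CPM in the untreated library. Col15a1 was the third member of microglia, at 36.8 CPM in NPs and 25.3 CPM in untreated. Its level in brain fibroblasts was higher, at 245 CPM in NPs and 691 CPM in untreated.

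The mixture of collagen groups set the classes apart in either treatment. Collagen IV took 81.9% (79.3 to 84.2%) of the collagen UMIs of NPs brain endothelium and 84.1% (82.2 to 85.8%) of untreated brain endothelium. In astrocytes it took 10.2% (9.52 to 10.9%) and 10.1% (9.45 to 10.7%), with FACITs at 33.3% (32.2 to 34.3%) and 40.5% (39.4 to 41.5%). In microglia fibrillar collagens took 77.4% (76.7 to 78.0%) and 78.2% (77.4 to 78.9%), which was almost wholly Col27a1, and collagen VI took 12.1% (11.6 to 12.6%) and 10.96% (10.4 to 11.5%). Shares of this kind are of collagen UMIs only and so do not move when other RNA dilutes the class.

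**Figure D3:**
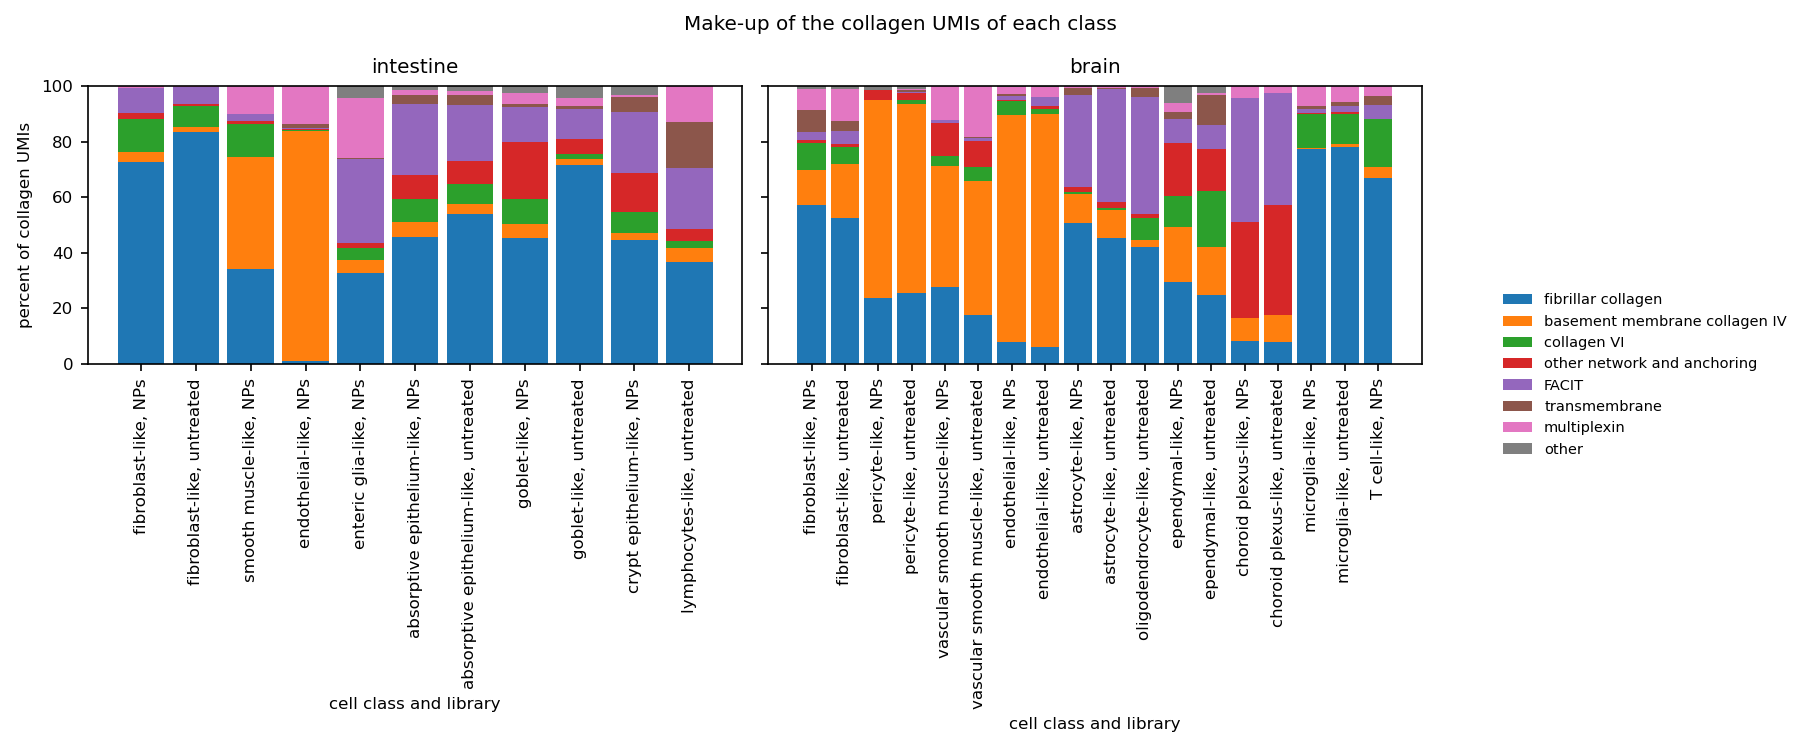
Percent of collagen UMIs (y axis) taken by each structural group of collagen genes (colours) in each intestinal and brain class and library (x axis, NPs left of untreated) that had at least 100 collagen UMIs. Collagen IV fills 82.8% of the intestinal endothelial bar of the NPs library, and 81.9% of the NPs and 84.1% of the untreated brain endothelial bars, while fibrillar collagen fills 72.6% of the NPs and 83.3% of the untreated intestinal fibroblast bars.

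Chains that assemble together, and genes that share a start region, were set side by side as ratios of UMIs. Col4a1 and Col4a2 start head to head on chromosome 8, with 22 bases of annotated overlap between their gene spans, and form the common heterotrimer of basement membranes. The ratio of Col4a1 to Col4a2 was 1.73 (1.47 to 2.03) in intestinal endothelium of the NPs library, 1.68 (1.46 to 1.95) in NPs and 1.51 (1.35 to 1.68) in untreated brain endothelium, and 1.68 (1.44 to 1.95) in NPs intestinal fibroblasts. In untreated intestinal fibroblasts Col4a1 had 63 UMIs and Col4a2 42. The intervals of these endothelial and fibroblast ratios overlapped. Pericytes had 3.10 (1.87 to 5.33) in NPs and 2.12 (1.65 to 2.74) in untreated brain, and vascular smooth muscle 1.10 (0.733 to 1.67) and 1.32 (1.12 to 1.56). Both had intervals that overlapped those of brain endothelium in the same library. Both mural classes summed gave 1.71 (1.26 to 2.34) in NPs and 1.53 (1.34 to 1.76) in untreated brain. Astrocytes had 1.13 (0.937 to 1.36) and 0.992 (0.831 to 1.18), with intervals below those of endothelium in both libraries. Col4a6 and Col4a5 start 1308 bases apart on chromosome X. Their UMIs were far from parallel: Col4a5 had 63 UMIs and Col4a6 0 in NPs intestinal fibroblasts, 12 and 0 in untreated ones, while brain fibroblasts had 1.88 (0.990 to 3.68) Col4a5 UMIs for each of Col4a6 in NPs and 2.15 (1.34 to 3.53) in untreated brain. The collagen I chains, which assemble as 2 products of Col1a1 with 1 of Col1a2, gave a Col1a1 to Col1a2 ratio of 0.584 (0.556 to 0.614) in NPs and 0.609 (0.558 to 0.663) in untreated intestinal fibroblasts, and of 2.41 (2.12 to 2.74) and 2.28 (1.99 to 2.62) in astrocytes.

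The NPs and untreated libraries were then compared within each class that had at least 50 cells in each. A gene counted as measured with at least 30 UMIs over both libraries and as called with a difference of at least 2-fold. In intestinal fibroblasts 18 collagen genes were measured, 7 were called higher in NPs and 0 lower. Of all 5823 genes measured there, 17.3% were called higher and 7.18% lower. The median log2 ratio was 0.82 over the collagen genes and 0.27 over all genes. The class held 893760 UMIs in NPs and 314273 in untreated, so the floor favoured members counted in the deeper NPs class. Nothing is therefore read from the count or the medians. The called members were the network gene Col8a1, the FACITs Col16a1 and Col12a1, the collagen IV genes Col4a1 and Col4a2, Col6a3 and the multiplexin Col15a1. Of these, Col16a1, Col12a1 (58 and 8 UMIs) and Col15a1 (102 and 16 UMIs) reached 30 UMIs through the NPs library alone. Col8a1 had 488 UMIs in NPs and 49 in untreated fibroblasts, 546 and 156 CPM, a ratio of 3.50 (2.61 to 4.80). Col6a3 had 1029 and 433 CPM, a ratio of 2.38 (1.98 to 2.87). The collagen IV gene Col4a1 had 521 and 200.5 CPM (ratio 2.60, 2.00 to 3.44), and Col16a1 had 92 and 12 UMIs (ratio 2.70, 1.47 to 5.41). None of the 6 fibrillar members measured was called, though Col5a3 had 163 CPM in NPs and 92.3 CPM in untreated fibroblasts. Col3a1 gave a ratio of 1.00 (0.964 to 1.05), Col1a1 1.06 (0.980 to 1.14) and Col1a2 1.10 (1.04 to 1.17). Col14a1 gave 1.76 (1.58 to 1.97) and Col6a1 1.76 (1.52 to 2.04), both under 2-fold. Fibrillar collagens accordingly took 72.6% (72.0 to 73.2%) of collagen UMIs in NPs and 83.3% (82.4 to 84.2%) in untreated fibroblasts, and collagen IV took 3.51% (3.28 to 3.76%) and 1.77% (1.47 to 2.12%).

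**Figure D4:**
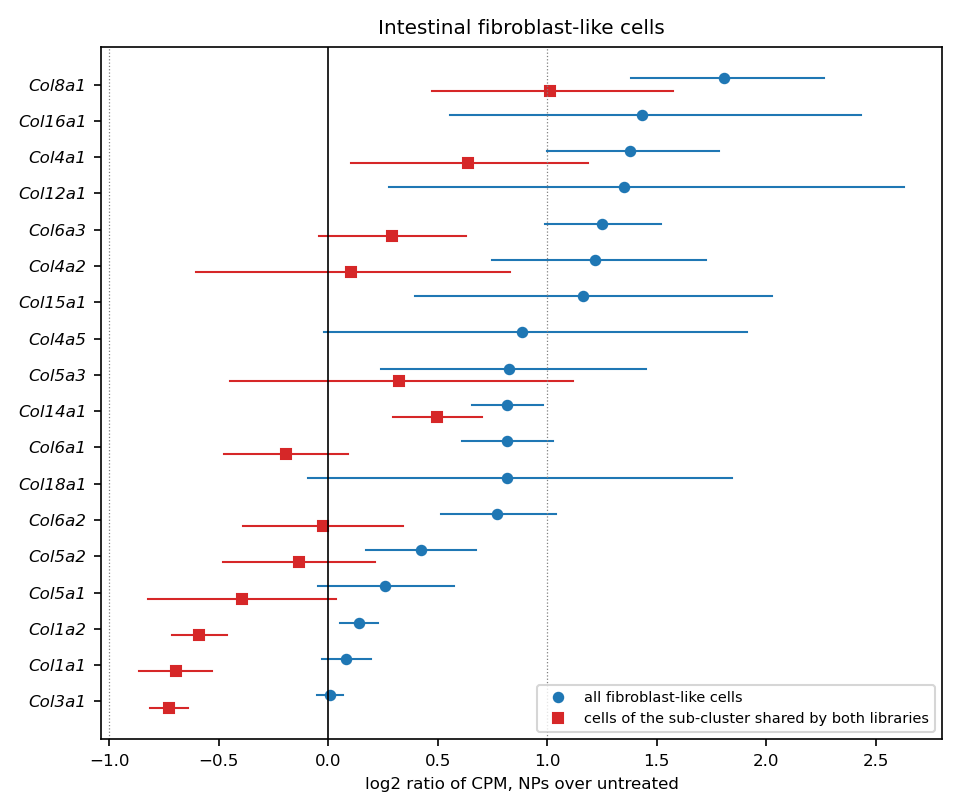
Each measured collagen gene of intestinal fibroblasts (rows) with its log2 ratio of CPM, NPs over untreated, on the x axis and 95% counting intervals as lines; blue circles are all fibroblast cells and red squares the cells of the sub-cluster shared by both libraries, solid and dotted lines mark no difference and 2-fold. Col8a1 lies past 2-fold over all cells and at the 2-fold line in the shared sub-cluster, while Col3a1, Col1a1 and Col1a2 lie near 0 over all cells and below it in the shared sub-cluster.

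The fibroblast class was not made of the same cells in the libraries. Of the NPs cells 139 lay in a sub-cluster with 4 untreated cells. Of the untreated cells 80 lay in another with 2 NPs cells, in which the class markers were weak and Col3a1 was at 3251 CPM in the untreated cells. Median depth was 4558 UMIs in NPs and 1370 in untreated fibroblasts. The 8 fibroblast markers summed to 33031 and 15159 CPM, and those of absorptive epithelium to 201 and 1861 CPM. The Hox genes of groups 10 to 13, which mark the posterior gut, made up 39.4% of Hox UMIs in NPs and 74.0% in untreated fibroblasts, so the libraries also differed along the gut axis, whose part in the collagen values was not tested. In the 1 sub-cluster shared by both libraries (32 NPs and 23 untreated cells), a comparison added after these values were seen, the fibrils stood the other way. Col3a1 had 9963 CPM in NPs and 16514 CPM in untreated cells, and Col1a1 2864 and 4644 CPM. Col8a1 lay at the 2-fold threshold there, at 556 and 276 CPM, and was the one member called. Over the whole class its 49 untreated UMIs lay in 9 cells, 15 of them in 1 cell. Col4a1 had 482 and 310.0 CPM and Col6a3 1027 and 841 CPM. The fibroblast calls also depended on the cells kept: with at least 1000 UMIs a cell, 2 members were called higher and 1 lower, and with doublet calls kept, 1 and 1.

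The genes that modify, trim, bind and remodel collagen were read in the same fibroblasts as lists. Called higher in NPs were 4 of 15 measured genes of modification and folding, 1 of 8 of trimming and crosslinking, 2 of 5 receptors, 1 of 6 of breakdown, 3 of 10 basement membrane partners and 7 of 10 of the TGF-beta axis, and none was called lower. Over all genes of these cells 17.3% were called higher and 7.18% lower, so the counts for trimming and crosslinking and for breakdown lay under the share called higher. Median log2 ratios were 0.86, 0.40, 0.93, 0.28, 0.89 and 1.42 in that order, beside 0.27 for all genes. The largest ratio was that of Ccn2 (170.1 CPM in NPs and 19.1 CPM in untreated; ratio 8.91, 4.00 to 24.7), a matrix signalling protein whose gene TGF-beta activates. Next stood Itga11 (103 CPM in NPs and 15.9 CPM in untreated; ratio 6.47, 2.67 to 20.4), a collagen receptor subunit of fibroblasts, and Plod2 (131 CPM in NPs and 28.6 CPM in untreated; ratio 4.57, 2.33 to 10.2), a lysyl hydroxylase of collagen. These ratios rested on 6, 5 and 9 untreated UMIs in that order. The floor favoured genes counted in the deeper NPs class in these lists too, so nothing is read from their counts or medians. Mrc2 (159 CPM in NPs and 35.0 CPM in untreated; ratio 4.54, 2.46 to 9.30) encodes a receptor that takes up collagen fragments. Ltbp4 (1459 CPM in NPs and 410.5 CPM in untreated; ratio 3.55, 2.96 to 4.29) encodes a latent TGF-beta binding protein, and Hspg2 (307 CPM in NPs and 124 CPM in untreated; ratio 2.47, 1.76 to 3.55) encodes perlecan of the basement membrane. The difference in cells between the libraries described above applies to these genes too.

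Goblet-like cells had little collagen but differed between the libraries. Of 19 measured members, 17 were called higher in NPs and 1 lower, where 13.7% of 14313 genes were called higher and 7.06% lower. Most members reached 30 UMIs through the NPs library alone. The goblet class held 34293785 UMIs in NPs and 10248475 in untreated, so the floor favoured members counted in the deeper NPs class, and nothing is read from the count. Fibroblast genes made up much of the sum. Col3a1 had 464 UMIs in NPs and 25 in untreated goblet cells (13.5 and 2.44 CPM; ratio 5.55, 3.71 to 8.66), Col1a2 226 and 9 UMIs, and Col1a1 156 and 6 UMIs. Lymphocytes of the same libraries had 3.22 and 0.481 CPM of Col3a1. After thinning to 1000 UMIs, 2.61% of NPs and 0.303% of untreated goblet cells held a Col3a1 UMI, and 0.610% and 0.0185% of lymphocytes. Unthinned shares were 5.61% and 1.05% of goblet cells (median 3217 and 1922 UMIs) and 1.61% and 0.190% of lymphocytes (median 2966 and 2819 UMIs). Fibroblast markers summed to 103 CPM in NPs and 107 CPM in untreated goblet cells; the part of stray fibroblast RNA was not tested.

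Col8a1 was the clearest goblet member. It had 412 UMIs in 224 NPs goblet cells and 9 UMIs in 5 untreated ones, 12.01 and 0.878 CPM, a ratio of 13.7 (7.14 to 30.1). Of the NPs UMIs 382 came from 1 of the NPs goblet clusters, whereas 390 of the 464 Col3a1 UMIs came from the other, so the counts of these members lay mostly in different cells. Lymphocytes had 1.07 CPM of Col8a1 in NPs and 0.131 CPM in untreated. Col6a3 had 77 UMIs in NPs and 1 in untreated goblet cells, a ratio of 23.0 with an interval of 4.01 to 921. Its partners Col6a2 (46 and 1 UMIs; ratio 13.7, 2.35 to 555) and Col6a1 (74 and 2 UMIs; ratio 11.1, 2.95 to 93.002) were as thinly counted in untreated cells. Col4a2 had 37 UMIs in NPs and 0 in untreated, at least 3.69-fold higher with 3 UMIs as the floor of the untreated class. Col20a1 had 110 and 10 UMIs (ratio 3.29, 1.72 to 7.05). The smallest ratios above 1 were those of Col28a1 (1.93) and Col11a2 (2.19). Col2a1 was the member called lower, with 0 UMIs in NPs and 92 UMIs in 4 untreated cells, of which 86 lay in 1 cell. That is at least 103-fold lower in NPs, taking 3 UMIs as the floor of the NPs class, and it rests on that cell. The goblet class held 4435 NPs cells, 2091 and 2242 of them in 2 clusters and 102 in a sub-cluster with the smooth muscle genes Acta2 and Tagln among its leading genes. Of its 1242 untreated cells, 1224 lay in another cluster, which held no NPs cell, and 9 and 9 in the 2 NPs clusters. The 9 untreated cells of 1 of these held 91 of the 92 Col2a1 UMIs and 15 of the 25 untreated Col3a1 UMIs. The class's posterior Hox share was 12.3% in NPs and 73.0% in untreated. With coarser clusters (resolution 0.5), Col3a1, Col1a2, Col1a1, Col6a3, Col6a1 and Col14a1 stood lower in NPs than in untreated goblet cells. Calls higher and lower in NPs among the measured genes of the other lists were 6 and 0 of 14 for modification and folding, 3 and 0 of 3 for trimming and crosslinking, 1 and 0 of 4 for receptors, 2 and 1 of 5 for breakdown, 5 and 0 of 9 for basement membrane partners and 2 and 0 of 5 for the TGF-beta axis. Over all genes of goblet cells 13.7% were called higher and 7.06% lower. The floor favoured genes counted in the deeper NPs class here too, so nothing is read from these counts. Sparc (11.2 CPM in NPs and 0.683 CPM in untreated; ratio 16.4, 7.90 to 41.2), a collagen-binding matrix protein, and Loxl3 (3.24 CPM in NPs and 0.293 CPM in untreated; ratio 11.1, 3.69 to 54.4), a lysyl oxidase, had large ratios in goblet cells. Timp4, an inhibitor of matrix proteases, stood at 0.933 CPM in NPs and 5.76 CPM in untreated, 6.17-fold lower (3.95 to 9.81).

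Absorptive cells gave 4 calls higher and 0 lower among 7 measured members, where 21.8% of 14660 genes were called higher and 11.3% lower. All of these levels were under 3 CPM. Col20a1, a FACIT with a little known role, had 113 UMIs in NPs and 31 in untreated (2.46 and 0.786 CPM; ratio 3.13, 2.09 to 4.82). Col7a1, the anchoring fibril gene known from skin, had 42 and 4 UMIs (ratio 9.01, 3.27 to 34.6). Lymphocytes had 2.15 CPM of Col20a1 in NPs and 1.05 CPM in untreated, and 1.61 and 0.131 CPM of Col7a1, so the absorptive values were close to or under those of cells that should lack the genes. Col11a2 and Col1a2 were called too, at ratios of 4.08 (2.16 to 8.35) and 3.20 (1.79 to 6.10). Col3a1 (1.47), Col1a1 (1.84) and Col8a1 (0.981) were not. These calls depended on the processing. With cells thinned to 1000 UMIs no member was called, and with finer clusters (resolution 2) the log2 ratio was -0.50 for Col1a2 and -0.042 for the collagen sum, both lower in NPs. Fibroblast markers summed to 31.5 CPM in NPs and 211 CPM in untreated absorptive cells; their part was not tested. Calls higher and lower in NPs among the measured genes of the other lists were 3 and 1 of 12 for modification and folding, 1 and 1 of 2 for trimming and crosslinking, 2 and 0 of 4 for receptors, 0 and 2 of 4 for breakdown, 4 and 3 of 10 for basement membrane partners and 2 and 2 of 5 for the TGF-beta axis. Itga2 (46.0 CPM in NPs and 4.05 CPM in untreated; ratio 11.3, 9.65 to 13.4), a collagen-binding integrin subunit, and Hspg2 (10.8 CPM in NPs and 1.39 CPM in untreated; ratio 7.75, 5.86 to 10.4) were among the higher ones, and Timp4 (0.435 and 3.95 CPM; 9.09-fold lower, 5.69 to 15.3) and the laminin gene Lama3 (1.87 and 11.7 CPM; 6.25-fold lower, 4.95 to 7.96) among the lower ones. The posterior Hox share of absorptive cells was 8.83% in NPs and 84.4% in untreated, and nearly all NPs cells lay in 1 cluster (3296 cells) that held 6 untreated cells. In enteroendocrine cells Col8a1 was the 1 member measured, 26 UMIs in 13 NPs cells and 57 UMIs in 23 untreated cells, 2.18-fold lower in NPs (1.35 to 3.62). As a mean over cells its log2 ratio was 0.40, the opposite direction, and with cells thinned to 1000 UMIs it was not called. There 4.19% of 7240 genes were called lower and 13.1% higher. At 28.5 and 62.2 CPM, its level was above that in goblet cells in both libraries.

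In the brain a smaller share of all genes differed by 2-fold or more. Endothelium gave 1 call higher and 1 lower among 7 measured members, where 1.24% of 9240 genes were called higher and 1.7% lower. The main basement membrane genes did not pass 2-fold. Col4a1 had 500 UMIs in NPs and 830 in untreated (416 and 445 CPM; ratio 0.935, 0.835 to 1.05), and Col4a2 had 247 and 296 CPM (ratio 0.836, 0.724 to 0.965). A 2-fold difference lies outside both counting intervals. After thinning, 39.8% of NPs and 35.0% of untreated endothelial cells held a Col4a1 UMI, against 0.0465% and 0.115% of microglia. Unthinned shares were 74.1% and 78.3% of endothelium (median 3785 and 4512 UMIs) and 0.335% and 0.677% of microglia. The called members were sparse. Col6a6 had 42 UMIs in 4 NPs cells, 26 of them in 1 cell, and 23 UMIs in 12 untreated cells, a ratio of 2.83 (1.67 to 4.93) that rests on that cell: with the highest cell of each library left out, no member was called higher and 3, in place of 1, were called lower. Col14a1 had 10 and 35 UMIs and was 2.26-fold lower (1.09 to 5.11). Col27a1 (41.6 and 22.5 CPM; ratio 1.85) and Col18a1 (13.3 and 25.8 CPM; ratio 0.517) did not reach 2-fold in either direction, as did Col1a2 (8 and 22 UMIs). Calls higher and lower in NPs among the measured genes of the other lists were 0 and 0 of 15 for modification and folding, 0 and 0 of 3 for receptors, 0 and 0 of 2 for breakdown, 0 and 0 of 10 for basement membrane partners and 0 and 0 of 8 for the TGF-beta axis. Markers of pericytes summed to 974 CPM in NPs and 713 CPM in untreated endothelium; their part was not tested.

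**Figure D5:**
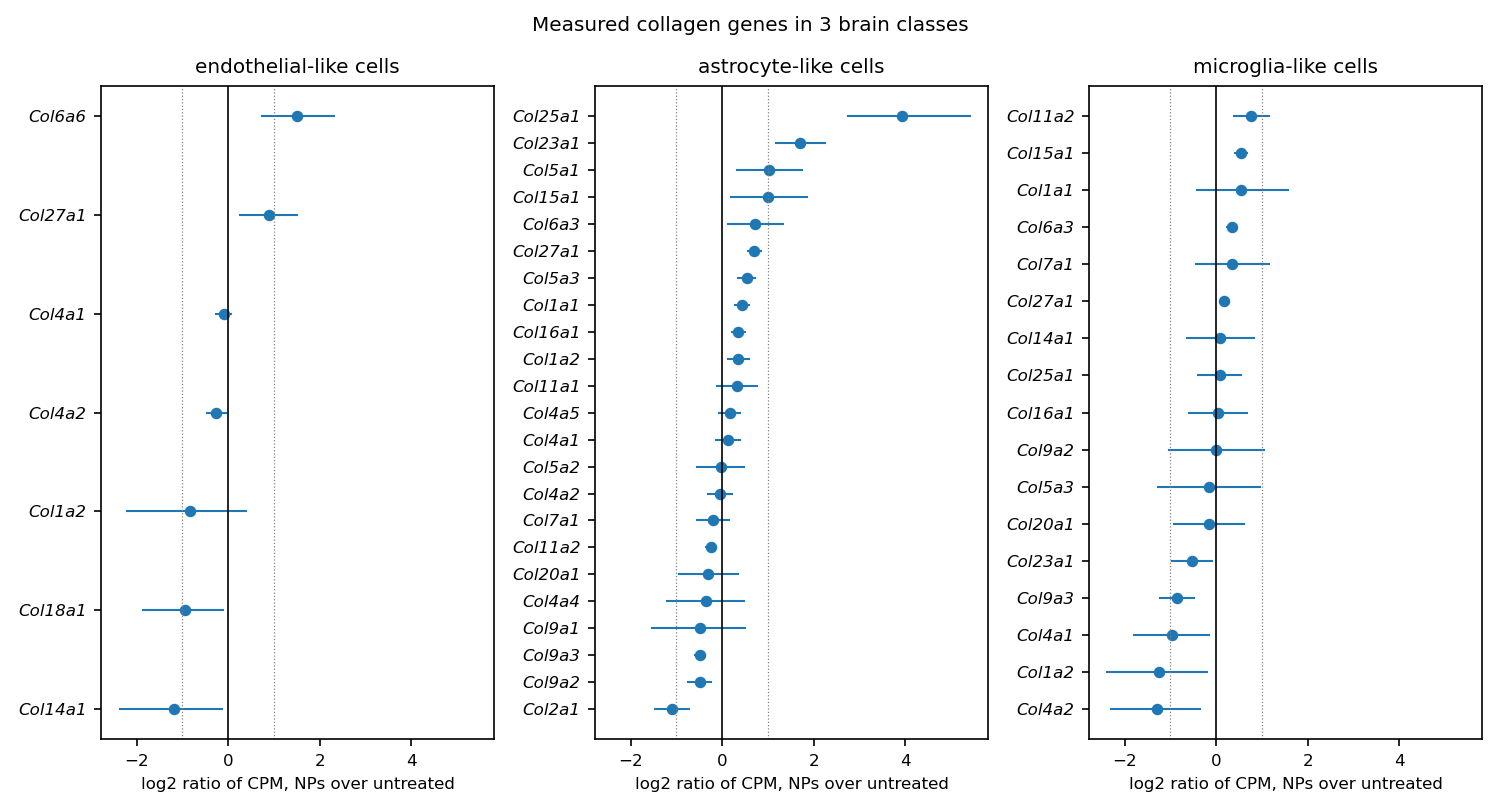
Each measured collagen gene (rows) of brain endothelium, astrocytes and microglia (panels) with its log2 ratio of CPM, NPs over untreated, on the x axis as a point and its 95% counting interval as a line; solid and dotted vertical lines mark no difference and 2-fold. Abundant members have short intervals and lie within 2-fold, such as Col27a1 in microglia (ratio 1.13) and Col4a1 in endothelium (ratio 0.935), and most points past 2-fold have longer ones.

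In astrocytes 23 members were measured, 4 were called higher and 1 lower, where 2.46% of 16226 genes were called higher and 1.55% lower. Col25a1 had 80 UMIs in 6 NPs cells and 6 UMIs in 3 untreated cells (4.16 and 0.273 CPM; ratio 15.2, 6.69 to 42.7), and 76 of the NPs UMIs lay in 1 cluster. Col23a1 had 117 and 41 UMIs (ratio 3.26, 2.26 to 4.77), 78 of the NPs UMIs in the same cluster. Both calls rest on few cells. Without that cluster, a comparison added after these values were seen, 1 member was called higher. Col5a1 (50 and 28 UMIs; ratio 2.04, 1.26 to 3.36) and Col15a1 (37 and 21 UMIs; ratio 2.01, 1.15 to 3.61) sat at the threshold. Among abundant members, Col27a1 (1.63, 1.47 to 1.81), Col5a3 (1.45, 1.28 to 1.66), Col1a1 (1.34, 1.21 to 1.49) and Col16a1 (1.28, 1.16 to 1.41) had ratios above 1. Col11a1, the partner chain of Col11a2, had 96 and 88 UMIs (ratio 1.24, 0.922 to 1.68). Ratios below 1 included Col9a3 at 0.712 (0.666 to 0.762), Col9a2 at 0.709 (0.598 to 0.840), Col11a2 at 0.842 (0.777 to 0.912) and Col2a1, the member called lower, at 4.36 CPM in NPs and 9.29 CPM in untreated, 2.13-fold lower (1.64 to 2.78). The cluster that holds Col2a1 and much of Col9a3 gave 90 NPs and 256 untreated cells, and within it Col2a1 stood at 109 CPM in NPs and 94.4 CPM in untreated. That cluster was 90 of 4024 NPs astrocytes and 256 of 4165 untreated ones. Without it, a comparison added after these values were seen, no member was called lower. Calls higher and lower in NPs among the measured genes of the other lists were 0 and 0 of 19 for modification and folding, 1 and 0 of 7 for trimming and crosslinking, 2 and 0 of 7 for receptors, 0 and 0 of 5 for breakdown, 0 and 1 of 9 for basement membrane partners and 0 and 1 of 10 for the TGF-beta axis. Ltbp4 had 1.82 CPM in NPs and 24.9 CPM in untreated astrocytes, 13.7-fold lower (9.71 to 19.8), and Nid1, the nidogen gene of basement membranes, 3.33 and 7.11 CPM, 2.14-fold lower (1.59 to 2.91). Vascular smooth muscle markers summed to 8.83 CPM in NPs and 34.7 CPM in untreated astrocytes. The collagen-binding immune receptor gene Lair1 had 88.2 and 32.3 CPM, beside microglia markers summing to 749 and 425 CPM, whose part was not tested.

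In microglia, 17 members were measured, 0 called higher and 2 lower, where 1.86% of 15803 genes were called higher and 2.82% lower. The lower members were Col1a2 (12 UMIs in NPs and 24 in untreated; 2.38-fold lower, 1.14 to 5.22) and Col4a2 (15 and 31 UMIs; 2.46-fold lower, 1.29 to 4.90), both at about 1 CPM or less. Vessel markers were also lower in NPs microglia: those of vascular smooth muscle summed to 5.21 CPM in NPs and 33.1 CPM in untreated, of pericytes to 8.38 and 13.3 CPM, and of endothelium to 19.7 and 31.8 CPM. Their part was not tested. The abundant Col27a1 had a ratio of 1.13 (1.10 to 1.16), and Col6a3 1.27 (1.18 to 1.36). Col15a1 gave 1.46 (1.33 to 1.60), Col11a2 1.70 (1.30 to 2.23), Col1a1 1.46 (0.744 to 2.96), Col4a1 0.514 (0.288 to 0.898) and Col9a3 0.552 (0.425 to 0.713). Across the 5 microglia clusters Col27a1 ranged from 264 to 442 CPM in NPs and from 283 to 389 CPM in untreated, with the same clusters lowest and highest. The spread between clusters was thus wider than the difference between the libraries. Calls higher and lower in NPs among the measured genes of the other lists were 0 and 0 of 17 for modification and folding, 0 and 2 of 5 for trimming and crosslinking, 0 and 0 of 6 for receptors, 0 and 0 of 5 for breakdown, 0 and 0 of 7 for basement membrane partners and 0 and 1 of 9 for the TGF-beta axis. The collagen C-proteinase enhancer gene Pcolce had 0.539 and 2.17 CPM, 4.03-fold lower (2.35 to 7.25). In brain T cells, Col27a1 had 76 UMIs in NPs and 9 in untreated, a ratio of 3.24 (1.62 to 7.36). Of 8303 genes there, 5.52% were called higher and 1.4% lower. Col27a1 was the only collagen member measured in these T cells. It reached the UMI floor through the NPs library alone, and its untreated count was thin. Its level was far higher in microglia, and whether stray microglial RNA entered the T cells was not tested.

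The remaining members were rare. 4 members had under 30 UMIs over all 4 libraries, none had 0, and 23 members were measured in at least 1 compared class of the intestine and 26 in the brain. Col26a1 was counted mainly in brain fibroblasts (65.4 CPM in NPs and 81.2 CPM in untreated) and ependymal cells (26.9 and 17.8 CPM). Col6a4 was highest in brain B cells, though on 10 UMIs in NPs and 3 in untreated (33.7 and 32.7 CPM). Most brain UMIs of Col7a1 lay in astrocytes (6.65 CPM in NPs and 7.65 CPM in untreated). Col9a2, the partner of Col9a3, had 11.8 and 16.6 CPM there and Col9a1 15 and 24 UMIs. Col20a1 in the brain was highest in ependymal cells (7.69 and 6.89 CPM), and Col5a1, a chain that starts fibrils, had 12 UMIs in NPs and 16 in untreated vascular smooth muscle. Col14a1 reached 22.5 CPM in NPs and 21.6 CPM in untreated brain monocytes or dendritic cells. Col8a1 in neurons had 4 UMIs in 18 NPs cells and 59 UMIs in 41 untreated cells. Col17a1, a skin transmembrane collagen, had 48 UMIs over all 4 libraries, Col10a1 29, Col22a1 20, Col24a1 17 and Col19a1 9.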

How the data were processed

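Single-cell RNA-seq was read from 4 libraries, 1 per group, deposited by the authors as raw UMI count matrices of 55450 genes. Cell Ranger 5.0.1 and the build GRCm38 are named in the submitters' processing notes. The filters behind the deposited barcodes are not given in the sources used here, and the lowest barcode held 500 UMIs.

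Barcodes under 500 UMIs or 200 genes, or over 20% mitochondrial, were dropped. Doublets were marked with Scrublet in scanpy 1.11.5. Its own threshold marked 0% of NPs and 0.0354% of untreated intestinal cells, so a fixed score of 0.25 was used there, which removed 0.930% and 0.642%, while in the brain its own threshold marked 2.01% of NPs and 2.94% of untreated cells. Each tissue was clustered over both libraries without batch correction and without collagen genes (2000 variable genes, 30 components, 15 neighbours, Leiden resolution 1), and clusters were named with marker lists from at least 3 markers that passed 2-fold and 20% of cells. The naming rules were settled after the clusters had been seen. Other software was Python 3.11.15, numpy 2.4.6, scipy 1.17.1 and pandas 2.3.3.

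UMIs were summed per class and library and divided by the class total (CPM). Ratios have conditional binomial intervals. With 1 library a group no test was possible. A class was compared with at least 50 cells in each library, a gene was measured with at least 30 UMIs over both, and a call was 2-fold. Thinning drew 1000 UMIs from each cell and left out shallower cells. The summing and interval steps were tested on simulated counts. The text names, in each compared class, the 5 members of highest level, the 3 largest and 3 smallest ratios, members highest outside fibroblasts, and up to 4 genes of each other list. The members and all lists were chosen with earlier results of these data known. Alternatives changed the mitochondrial limit, the UMI floor, doublet removal, resolution, clustering genes, scaling, free RNA, the UMI and fold thresholds and the sub-clusters used.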

Additional observations from a re-analysis of the deposited data

How the results depend on the processing

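No paired analysis was possible because each group had 1 library. Values here are the log2 ratio (NPs over untreated) of summed collagen, then the number of members called higher and called lower. Intestinal fibroblasts had 0.28, 7 and 0. The sum was -0.027 at a mitochondrial limit of 10%, -0.36 with at least 1000 UMIs, -0.56 with doublets kept, 0.23 at resolution 0.5, 0.89 thinned, 0.86 as a mean over cells, 0.0078 with all genes centred on a median of 0 and -0.45 in the shared sub-cluster. Higher calls were 2 with at least 1000 UMIs, 1 with doublets kept, 12 as a mean over cells, 4 centred, 13 at 1.5-fold and 1 in the shared sub-cluster, and lower calls were 1 with at least 1000 UMIs and 1 with doublets kept. Without a mitochondrial limit and at resolution 2 fibroblasts had under 50 untreated cells and were not run. Absorptive cells had 1.31, 4 and 0. Their sum reversed to -0.042 at resolution 2, and was 0.46 without a mitochondrial limit, 1.67 with at least 1000 UMIs, 1.58 with doublets, 1.70 with collagen genes in the clustering, 1.07 thinned, 0.32 as a mean, 0.94 centred and 0.11 after subtracting free RNA. Higher calls were 7 with at least 1000 UMIs, 0 thinned, 2 after free RNA, 15 at a floor of 10 UMIs and 1 at 100 UMIs; lower calls were 2 at resolution 2 and 2 after free RNA. Goblet cells had 1.68, 17 and 1. Their sum was 0.99 at a limit of 10%, 2.55 with at least 1000 UMIs, 2.38 with doublets, 0.17 at resolution 0.5, 2.52 at resolution 2, 1.37 with collagen genes in the clustering, 0.51 thinned, 0.61 as a mean and 2.21 between 1 cluster of each library. Higher calls were 11 with at least 1000 UMIs, 6 at resolution 0.5, 11 at resolution 2, 4 thinned, 5 at 100 UMIs and 7 between those clusters. Lower calls were 2 at resolution 0.5 and 0 with at least 1000 UMIs, with doublets, at resolution 2, at 100 UMIs and between those clusters. Enteroendocrine cells had -0.24, 0 and 1; the sum was 1.77 thinned and 1.22 as a mean, with 0 lower calls in both and at 100 UMIs. In brain endothelium the 1 higher call became 0 thinned, as a mean, at 100 UMIs and without the highest cell, and 2 at 1.5-fold. Its 1 lower call became 2 without a mitochondrial limit, 3 at resolution 2, 2 with collagen genes in the clustering, 0 thinned, 3 as a mean, 4 at 10 UMIs, 0 at 100 UMIs, 3 at 1.5-fold and 3 without the highest cell. Astrocytes had 0.04, 4 and 1. Their sum was 0.17 with doublets, 0.17 with collagen genes in the clustering, -0.027 centred, -0.032 after free RNA and 0.17 without the Col2a1 cluster. Higher calls were 2 at a limit of 10%, 1 thinned, 2 as a mean, 2 centred, 1 at 100 UMIs and 1 without the Col25a1 cluster, and lower calls were 2 at a limit of 10%, 0 with collagen genes in the clustering, 0 thinned, 5 at 10 UMIs and 0 without the Col2a1 cluster. Microglia had 0 and 2 calls; higher calls were 1 thinned and 1 at 1.5-fold, lower calls 4 at resolution 2, 1 thinned, 5 at 10 UMIs, 0 at 100 UMIs and 4 at 1.5-fold. Among members, goblet cells at resolution 0.5 reversed for Col3a1 (-0.88), Col6a3 (-0.57), Col1a2 (-1.57), Col6a1 (-0.14), Col1a1 (-1.01) and Col14a1 (-0.92), and after free RNA for Col5a1 (-0.16). Col1a2 in absorptive cells reversed at resolution 2 (-0.50), and the mean over cells reversed Col8a1 in enteroendocrine cells (0.40) and Col6a6 in brain endothelium (-1.02). The cause was not tested. In all, 195 of 290 sums and counts and 853 of 1018 member ratios stayed close to the values given. For a ratio, close means inside its main counting interval, which can be wide or span no difference. For a count it means within 1.5-fold. A reversal was counted only where the main ratio was at least 2-fold, so the turns of sign of the fibroblast sum are not among the reversals. The sub-cluster, single-cluster and highest-cell settings were chosen after seeing the data. Depth limits the untreated fibroblasts, and fibroblasts, mural cells and epithelia of NPs brain, which had few cells.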
